A study of Mus musculus with 6 samples.

Results

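The common gamma chain cytokine receptors are the receptors for IL-2, IL-4, IL-7, IL-9, IL-15 and IL-21, which share the gamma chain encoded by *Il2rg*. Their 8 genes, *Il2ra*, *Il2rb*, *Il2rg*, *Il4ra*, *Il7r*, *Il9r*, *Il15ra* and *Il21r*, were taken by gene symbol from the 78275 genes of the deposited table, and all 8 were among the 16105 genes with enough counts to be compared. RNA of TCRβ high CD4-CD8+ T cells was sequenced after removal of ribosomal RNA, with 1 library from each of 3 wildtype (WT) and 3 BIT mice of 9 to 10 weeks on the C57BL/6 background, sorted to a purity above 98%. BIT mice are homozygous for an allele in which *Psmb11* sequence, encoding the thymoproteasome subunit β5t, takes the place of coding sequence of *Psmb8*, which encodes the immunoproteasome subunit β5i. All cells of a BIT mouse carry the allele, so that gain of β5t and loss of β5i, in the T cells or around them, cannot be told apart. By default the study used a single BIT line, whose allele replaces the leading coding exon of *Psmb8* alone, and nothing in the labels or methods names another line for these libraries. The labels name lymph nodes as the tissue but lymph nodes and spleens in the protocol.

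Engagement of these receptors brings the gamma chain and a private chain together, which activates the kinases JAK3 and JAK1 and then STAT5, STAT6 or STAT3. In CD8+ T cells, IL-7 keeps naive cells alive, whereas IL-15, which is presented to them by neighbouring cells, maintains memory cells. The β chain encoded by *Il2rb* (CD122) serves both IL-2 and IL-15 and is known to be abundant on memory-phenotype CD8+ T cells. The chain encoded by *Il7r* (CD127) is typical of naive and memory cells and is known to be lost on effector cells.

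The libraries held between 37467678 and 52922675 estimated counts. *Psmb8* counts lay between 8024 and 10790 in the WT and between 59 and 73 in the BIT libraries, and *Psmb11* had 0 counts in every WT library and between 1226 and 1926 in BIT mice, as the labels require. Counts of *Xist* were 9 and 2 in WT replicates 1 and 2, and 3, 2 and 125 in BIT replicates 1, 2 and 3. The library of WT replicate 3 went against the labelled male sex, with 66626 counts of *Xist* and 0 counts for each of *Eif2s3y*, *Uty*, *Kdm5d* and *Ddx3y*, which are Y-linked. Without it, the log2 fold changes were 0.84 for *Il2rb*, 0.61 for *Il7r*, 0.04 for *Il2rg*, 0.24 for *Il4ra*, -0.09 for *Il21r*, 0.34 for *Il15ra*, -0.58 for *Il2ra* and -1.21 for *Il9r*, of which that of *Il2rb* was called by limma-voom. Summed over 7 defining genes, CD8 T cell markers were between 4400 and 4742 CPM (counts-per-million, relative to the library total) in WT mice and between 4559 and 4922 CPM in BIT mice. Sums over 5 markers of CD4 and regulatory T cells were between 17.7 and 29.4 CPM in all 6 libraries, over 8 myeloid markers between 8.54 and 18.3 CPM, over 5 NK cell markers between 2.78 and 7.28 CPM and over 5 γδ T cell markers between 6.35 and 9.34 CPM. The highest of these were *Cd8b1*, *Ikzf2*, *Lyz2*, *Klra7* and *Trdc*, in the order of the lists, and 0 genes of any marker list were called. The 7 B cell markers summed to between 328 and 364 CPM, of which *Ighm* made up most. All 7 had estimates below 0 in BIT against WT mice, with a median log2 fold change of -0.37. Of the 6 myeloid markers tested, 2 had estimates above 0 and 4 below, with a median of -0.46. Of the 4 γδ T cell markers tested, 3 had estimates above 0 and 1 below, with a median of 0.50.

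The promoters of *Il7r* and *Il2rg* are shown because both genes were abundant in every library while only the level of *Il7r* stood apart in BIT mice. Each is the 250 bases before the annotated start on the gene's own strand, from RefSeq on GRCm38.p6, which held 7 of the 8 genes and no entry for *Il2rb*. The first lies at chr15:9529877-9530126 and the second at chrX:101268256-101268505, both on the minus strand. Capitals mark a match to a STAT motif in *Il7r* and to an ETS motif in *Il2rg*.
Il7r: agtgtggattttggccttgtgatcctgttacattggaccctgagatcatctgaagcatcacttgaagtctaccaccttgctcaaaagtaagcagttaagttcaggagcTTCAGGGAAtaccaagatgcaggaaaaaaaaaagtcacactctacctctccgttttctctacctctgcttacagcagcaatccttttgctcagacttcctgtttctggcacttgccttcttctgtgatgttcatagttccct
Il2rg: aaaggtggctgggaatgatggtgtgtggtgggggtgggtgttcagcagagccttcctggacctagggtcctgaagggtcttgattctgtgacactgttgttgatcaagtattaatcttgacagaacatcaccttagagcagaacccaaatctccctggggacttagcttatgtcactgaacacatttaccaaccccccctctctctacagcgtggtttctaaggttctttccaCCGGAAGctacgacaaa

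A STAT, an ETS, a FOXO and a T-box core motif were searched on both strands of these windows. The STAT motif TTCNNNGAA was found in *Il7r*, at -142 to -134 from the start, and in 7.02% of the 32851 promoter windows of all genes. The ETS motif CCGGAAG was found in *Il2rg*, at -17 to -11, and in 1 of the promoters of *Il15ra*, against 6.91% of all windows. A FOXO motif, GTAAACA, was found in *Il21r* alone among the 7 genes, against 3.17%, and a T-box motif, AGGTGTGA, in 0 of the 7, against 1.12%. The matches did not overlap each other. They describe these windows and were not tied to the expression values.

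To compare the genes with each other, levels were divided by the annotated exon length of each gene. In CPM per kilobase of exon, *Il2rg* was the highest in every library, between 268 and 297. *Il7r* followed, between 124 and 228. *Il2rb*, between 46.8 and 105, overlapped *Il21r*, between 64.1 and 68.8, over the 6 libraries. *Il4ra* lay lower, between 16.9 and 24.8. The levels of *Il15ra* (0.893 to 1.58), *Il2ra* (0.287 to 0.618) and *Il9r* (0.0181 to 0.084) were lower still, each below the lowest library of the gene before it. The one change of order fell between *Il21r* and *Il2rb*. *Il21r* was above *Il2rb* in 3 of 3 WT libraries, whereas *Il2rb* was above *Il21r* in 3 of 3 BIT libraries, and the same order was found in each library with the length of the longest transcript in place of all annotated exons. The chains for IL-7 and for IL-2 and IL-15 were thus the most abundant beside the gamma chain in BIT mice, and the α chains that raise affinity for IL-2 and IL-15 were scarce in both genotypes.

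**Figure D1:**
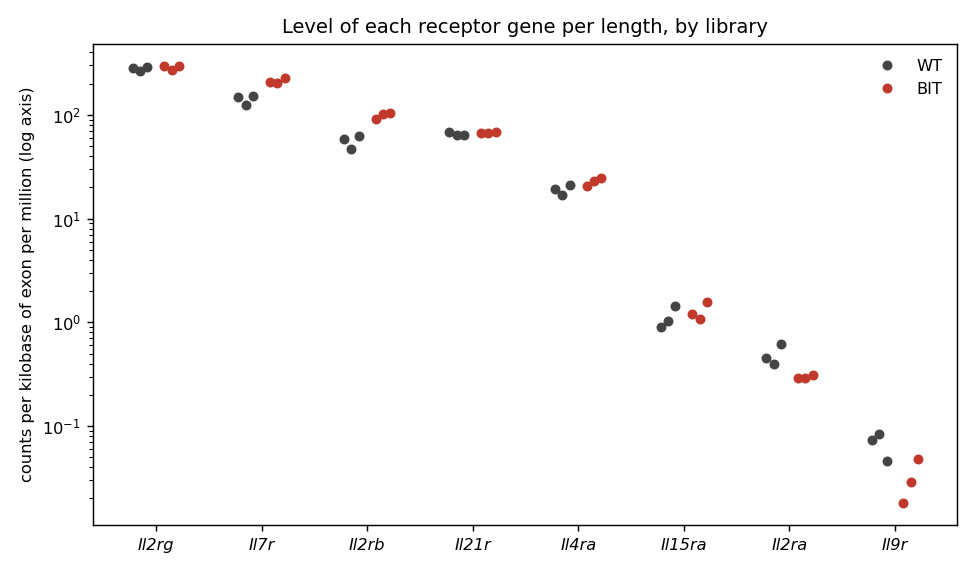
Level of each gene in each library, as CPM per kilobase of annotated exon on a log axis, with WT libraries in grey and BIT libraries in red. *Il2rb* lay between 46.8 and 62.7 in WT and between 90.4 and 105 in BIT mice, on either side of *Il21r*, whose 6 libraries lay between 64.1 and 68.8.

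*Il2rb* was the member with the largest rise in BIT CD8+ T cells. It was at 253, 203 and 273 CPM in WT replicates 1, 2 and 3 and at 393, 443 and 456 CPM in BIT replicates 1, 2 and 3. Every BIT library lay above every WT library, and the lowest BIT value exceeded the highest WT value by more than the range of the WT mice. On the quantile-normalized log2 CPM scale the level was 7.95 ± 0.132 (SD, n = 3) in WT and 8.72 ± 0.0651 (SD, n = 3) in BIT mice. The log2 fold change was 0.77 (standard error 0.0894, 95% interval 0.57 to 0.97), a 1.71-fold difference, and its adjusted p was 0.025 by limma-voom with Benjamini-Hochberg adjustment over all genes tested. It was thus the 1 member of 8 called, where 0.137% of all genes tested were called at an adjusted p below 0.05. Without WT replicate 3 the adjusted p was 0.0141, but without any one of the other 5 libraries it was between 0.069 and 0.244, with log2 fold changes between 0.70 and 0.81. In bulk RNA, more cells with the transcript and more transcript per cell cannot be told apart. Of the 5 NK cell markers, 4 had estimates above 0 and 1 below, with a median log2 fold change of 0.63 and 0 called. *Klra7*, a Ly49 receptor that memory-phenotype CD8+ T cells can also carry, was at 1.46 ± 0.998 CPM (SD, n = 3) in WT and 3.54 ± 1.179 CPM (SD, n = 3) in BIT mice, with a log2 fold change of 1.58 (limma-voom adjusted p = 0.312). Its groups overlapped in CPM, with 2.58 in WT replicate 3 and 2.28 in BIT replicate 1, but not after quantile normalization. The estimates of the other markers were 1.32 for *Klra4*, 0.63 for *Klra8*, 0.25 for *Klrb1c* and -0.72 for *Ncr1*, each with overlapping groups and at most 1.99 CPM in any library. The part of such cells in the *Il2rb* difference was not tested.

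*Il7r* showed the next difference by size of its test. It was at 688, 580 and 706 CPM in WT mice and at 960, 939 and 1061 CPM in BIT mice. The groups did not overlap, and the WT library without male transcripts was the closest to the BIT libraries. The log2 fold change was 0.54 (standard error 0.0941, 95% interval 0.33 to 0.76) and the limma-voom adjusted p was 0.154, so that it did not pass the threshold. When a batch term set replicate 3 apart from the other libraries, the adjusted p was 0.0215, with no filter on low counts 0.0479, and with DESeq2 1.29e-07, whereas with edgeR it was 0.179. With each library left out in turn, the limma-voom adjusted p was between 0.0675 (without WT replicate 3) and 0.509 (without BIT replicate 2), with no call. Of the 10 naive CD8 genes listed here, 3 had estimates above 0 and 7 below, with a median log2 fold change of -0.02. *Klf2*, a factor of quiescent T cells, was among the 3, at 0.18, and was not called. *Crlf2*, whose product pairs with the *Il7r* chain in the receptor for TSLP, was at 17.7 ± 1.83 CPM (SD, n = 3) in WT and 19.0 ± 3.20 CPM (SD, n = 3) in BIT mice.

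*Il2rg*, the chain that all these receptors need, was at 676, 639 and 694 CPM in WT and at 708, 650 and 709 CPM in BIT mice. The groups overlapped, and the estimate was near 0, with a 95% interval of the log2 fold change from -0.19 to 0.18 and a limma-voom adjusted p of 0.988. The sign of the estimate was negative with quantile normalization and positive with TMM normalization (0.0353). The gene is X-linked, and WT replicate 3, the library with 66626 counts of *Xist*, was within the range of the BIT libraries.

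**Figure D2:**
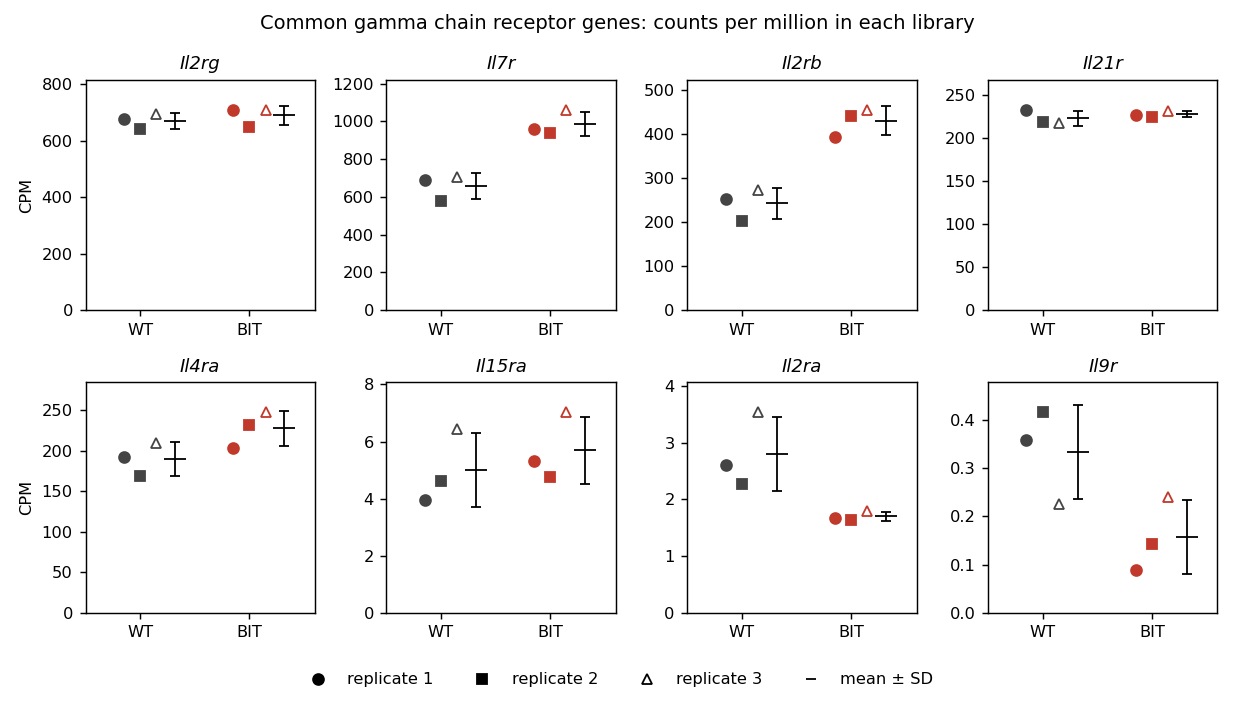
CPM of each gene in the 3 WT libraries (grey) and the 3 BIT libraries (red), with the replicate number given by the symbol and the mean ± SD as a bar. *Il2rb* and *Il7r* were higher and *Il2ra* was lower in all 3 BIT libraries than in any WT library, and the other 5 genes overlapped on this scale.

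*Il21r* and *Il4ra* encode the private chains for IL-21 and for IL-4. *Il21r* was between 217 and 233 CPM in WT and between 225 and 232 CPM in BIT mice, with a 95% interval from -0.22 to 0.13 on the log2 scale. Its estimate was -0.04 and turned to 0.03 with TMM normalization. *Il4ra* was at 193, 168 and 209 CPM in WT and at 204, 232 and 248 CPM in BIT mice, which overlapped by 1 library. After quantile normalization the groups were apart, with a log2 fold change of 0.20 (95% interval 0.02 to 0.39) and a limma-voom adjusted p of 0.556. *Il13ra1*, whose product forms an alternative receptor with the *Il4ra* chain, was at 0.516 ± 0.180 CPM (SD, n = 3) in WT and 0.244 ± 0.0877 CPM (SD, n = 3) in BIT mice, and its estimate of -0.85 was not called.

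The α chains were measured on few counts. *Il2ra*, encoding CD25, was counted 138, 115 and 141 times in the WT and 75, 69 and 67 times in the BIT libraries. Each BIT library was below every WT library, in counts, CPM and after normalization, with means of 2.80 ± 0.650 CPM (SD, n = 3) and 1.70 ± 0.0772 CPM (SD, n = 3). The log2 fold change was -0.59 (standard error 0.228, 95% interval -1.11 to -0.07) with a limma-voom adjusted p of 0.547, and it was between -0.71 and -0.46 under all 16 alternatives with no call. CD25 is also a marker of regulatory T cells. The 5 markers of CD4 and regulatory T cells all overlapped between the groups after quantile normalization, though *Foxp3* did not in CPM, with 2 estimates above 0, 3 below, 0 called and a median of -0.10 on the log2 scale. The factor *Foxp3* was at 1.00 ± 0.232 CPM (SD, n = 3) in WT and 0.568 ± 0.0815 CPM (SD, n = 3) in BIT mice (estimate -0.62), and the estimates of the others were -0.46 for *Cd4*, -0.10 for *Ikzf2*, 0.00331 for *Cd40lg* and 0.21 for *Zbtb7b*. The part of these cells in the *Il2ra* difference was not tested. *Il15ra* had between 200 and 263 counts in the 6 libraries and a 95% interval from -0.15 to 0.65 around 0.25. *Il9r* was counted 19, 21 and 9 times in the WT and 4, 6 and 9 times in the BIT libraries, and its 95% interval of -1.99 to 0.51 did not allow a direction to be given at this depth.

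Of the 8 genes, 4 had estimates above 0 and 4 below, with a median log2 fold change of 0.10 against 0.01 over all genes tested. An unadjusted p below 0.05 was reached by 4 of the 8, where 8.57% of all genes tested reached it. After quantile normalization the WT and BIT libraries did not overlap for 4 of the 8, 3 higher and 1 lower, where 13.3% of all genes tested did not overlap in one direction or the other. The genes were chosen with earlier results known, and these shares describe them only. All values here are relative to the library total.

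**Figure D3:**
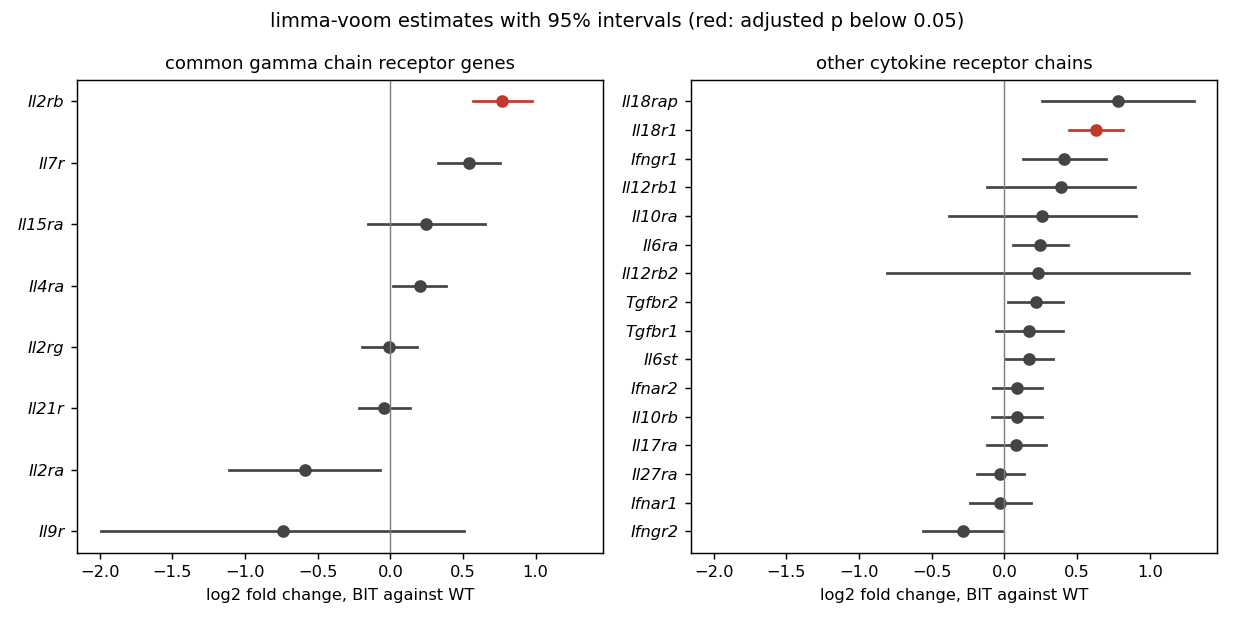
Log2 fold changes of BIT against WT mice from limma-voom with 95% intervals, for the 8 common gamma chain receptor genes (left) and 16 other cytokine receptor chains (right), with red for an adjusted p below 0.05. *Il2rb* (0.77) and *Il18r1* (0.63) were called, and *Il9r* and *Il2ra* lay lowest on the left with wide intervals.

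Ratios of 2 genes within a library do not depend on scaling between libraries. For each count of *Il2rg* there were 0.375, 0.318 and 0.393 counts of *Il2rb* in WT mice and 0.555, 0.682 and 0.643 in BIT mice. All BIT libraries were thus above all WT libraries, by 1.73-fold on average, or 0.79 on the log2 scale (p = 0.1 by a two-sided exact permutation test, which cannot give a lower p with 3 libraries in each group). *Il7r* gave 1.02, 0.907 and 1.02 counts for each count of *Il2rg* in WT mice and 1.355, 1.445 and 1.497 in BIT mice, a difference of 0.55 on the log2 scale (two-sided exact permutation p = 0.1). The ratio of *Il2rb* to *Il7r* differed less, with 0.368, 0.351 and 0.386 in WT and 0.410, 0.472 and 0.430 in BIT mice, 1.185-fold on average, again without overlap (two-sided exact permutation p = 0.1). With each library left out in turn, the 3 differences stayed between 0.70 and 0.88, between 0.49 and 0.59 and between 0.19 and 0.29 on the log2 scale. As shares of the summed level per length of the 8 genes, *Il2rg* made up 49.8% ± 1.32 (SD, n = 3) in WT and 41.8% ± 1.49 (SD, n = 3) in BIT mice, *Il7r* 25.0% ± 0.982 and 30.6% ± 0.699, *Il2rb* 9.87% ± 0.831 and 14.3% ± 1.02, and *Il21r* 11.7% ± 0.789 and 9.74% ± 0.273 (SD, n = 3 each). These shares sum to the whole, so that a larger share of 1 gene lowers the others.

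**Figure D4:**
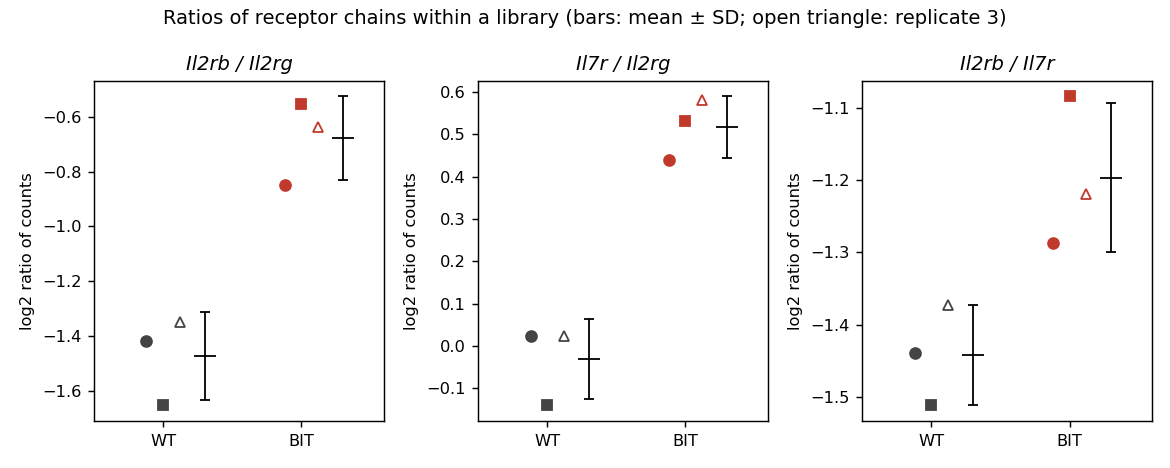
Log2 ratios of the counts of 2 receptor genes within each library, with the replicate number given by the symbol, open triangles for replicate 3 and the mean ± SD as a bar. In each panel the 3 BIT libraries lay above the 3 WT libraries, by 0.79 for *Il2rb* to *Il2rg*, 0.55 for *Il7r* to *Il2rg* and 0.25 for *Il2rb* to *Il7r*.

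The cells held next to no RNA of the ligands. *Il4*, *Il9* and *Tslp* had 0 counts in every library, which allows up to 0.0567 CPM in the deepest and 0.0801 CPM in the shallowest library, for counting error only. *Il2*, *Il7*, *Il15* and *Il21* had at most 6.27 estimated counts in any library, and 0 of the 7 ligand genes could be tested.

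Among 78 further genes of these pathways in 9 lists, 69 were tested and 1 was called by limma-voom, with 21 at an unadjusted p below 0.05. EdgeR called 1 and DESeq2 called 6. The median log2 fold change of the 69 genes was 0.09, against 0.01 over all genes tested. Of all genes tested, 0.137% were called by limma-voom and 8.57% had an unadjusted p below 0.05. The lists were written with earlier results of these data known, so that the counts here and by list describe these genes only. Of the 7 kinase and STAT genes, 0 were called by limma-voom, 2 had an unadjusted p below 0.05 and all 7 estimates were above 0, with a median of 0.19. *Stat3* had a log2 fold change of 0.24 and *Jak3*, the kinase bound to the gamma chain, of 0.25, both without overlap between the groups and with adjusted p values of 0.531 and 0.559. *Stat5a* and *Stat5b*, which carry the signals of IL-2, IL-7 and IL-15, had estimates of 0.08 and 0.05. Of the 4 SOCS family genes, which STAT activity induces and which dampen the signal, 0 were called or had an unadjusted p below 0.05, and the median was -0.09. *Socs3* had an estimate of -0.17 and *Socs1* of -0.08. *Cish*, a classical STAT5 target, was at 5.08 ± 1.59 CPM (SD, n = 3) in WT and 4.43 ± 0.544 CPM (SD, n = 3) in BIT mice.

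Of 10 genes known to respond to IL-2, IL-7 or IL-15, 0 were called by limma-voom and 5 had an unadjusted p below 0.05, all 5 with estimates above 0. The lowest p values were those of *Pim2*, a survival kinase, with a log2 fold change of 0.35 (adjusted p = 0.312), and of *Bcl2l11*, which encodes the death factor BIM, with 0.49 (adjusted p = 0.349). DESeq2 called these 2 genes. *Bcl2*, the survival factor that IL-7 maintains, was at 200, 173 and 208 CPM in WT and 219, 237 and 282 CPM in BIT mice. Its limma-voom adjusted p was 0.511. *Mcl1* was at 404 ± 32.1 and 389 ± 3.39 CPM (SD, n = 3 each).

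Of 8 transcription factors known to act on *Il2rb* or *Il7r*, 0 were called by limma-voom and 2 had an unadjusted p below 0.05. *Eomes*, which drives *Il2rb* in memory-phenotype cells, was at 81.5, 72.1 and 102 CPM in WT and 132, 155 and 137 CPM in BIT mice. The groups did not overlap, with a log2 fold change of 0.69 (standard error 0.114) and a limma-voom adjusted p of 0.112, which was 0.0271 without WT replicate 3. DESeq2 called *Eomes* (adjusted p = 5.12e-06), as did limma-voom with sample quality weights (adjusted p = 0.0209), whereas edgeR did not. *Tbx21*, encoding T-bet, was at 15.6, 15.8 and 36.3 CPM in WT and 31.0, 43.1 and 31.3 CPM in BIT mice, so that WT replicate 3 overlapped the BIT libraries. Its adjusted p was 0.538 and was 0.0396 without that library. *Foxo1*, an activator of *Il7r*, and *Gfi1*, a repressor of it, had estimates of 0.04 and -0.33, neither called.

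In the list of 12 memory-phenotype genes, 0 were called by limma-voom, 3 had an unadjusted p below 0.05 with estimates above 0 and 1 with an estimate below. *Cxcr3*, a chemokine receptor of memory cells, had an estimate of 0.59 (limma-voom adjusted p = 0.414, and 0.0317 without WT replicate 3), and *Klrd1*, encoding the NK receptor chain CD94, of -0.42 (adjusted p = 0.486). DESeq2 called *Cxcr3* (adjusted p = 0.0154), whereas edgeR did not. Of the 10 naive genes 0 were called, 1 had an unadjusted p below 0.05, and the median was -0.02. Among 18 chains of other cytokine receptors 16 were tested, with a median of 0.19. *Il18r1*, a chain of the IL-18 receptor, was the 1 gene called and rose from 68.8, 65.1 and 76.6 CPM in WT to 106, 120 and 114 CPM in BIT mice (log2 fold change 0.63, adjusted p = 0.0399 from limma-voom). Its partner *Il18rap* was at 27.9 ± 12.7 and 45.8 ± 6.80 CPM (SD, n = 3 each), with an estimate of 0.78 that was not called (adjusted p = 0.5, and 0.0148 without WT replicate 3). The *Il18r1* call was lost without any one library except WT replicate 3.

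The genes whose levels followed *Il2rb* most closely over the 6 libraries, among 8291 genes with a mean of at least 3 on the log2 CPM scale, were *Cd6* (Pearson r = 0.998), *Erlin2* (0.995), *Ganab* (0.993), *Pogk* (0.9897) and *Usp37* (0.988). For *Il7r* they were *Bltp3b* (0.995), *Ganab* (0.992), *Arhgap39* (0.991), *Cd6* (0.989) and *Sntb2* (0.989). *Il2rb* and *Il7r* themselves had r = 0.986. The 6 points share the difference between genotypes and the library scaling, so that these values are a description only.

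In the mouse genome (GRCm39, Gencode M39), *Il2rb* lies on chromosome 15 from 78363456 to 78395566, with 10 exons in its canonical transcript, and *Il7r* on the same chromosome from 9505874 to 9530262, with 8 exons, both on the minus strand. *Il2ra*, on chromosome 2 from 11647618 to 11698004, is followed on the plus strand after 12096 bases by *Il15ra*, from 11710101 to 11739128. *Il4ra*, on chromosome 7 from 125151079 to 125182844, is followed after 19756 bases by *Il21r*, from 125202601 to 125232756. Between either pair 0 protein-coding genes are annotated, and the estimates of the neighbours differed, at -0.59 and 0.25 for the first pair and 0.20 and -0.04 for the second, a difference between genes that was not tested. *Il2rg* lies on chromosome X from 100307984 to 100311861 and *Il9r* on chromosome 11 from 32137541 to 32150279. Antisense or overlapping genes are annotated at *Il2ra*, *Il2rb*, *Il4ra* and *Il9r*, with at most 4 counts in all 6 libraries together.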

How the data were processed

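The authors deposited 1 table of estimated counts for each gene, made by trimming the reads with Cutadapt 1.18, aligning them to GRCm39 with STAR 2.7.0f and counting with RSEM 1.3.1 on Gencode M38, with versions from the submitters' processing notes. RSEM divides reads that match several genes, and its strand setting is not given in the sources used here. Groups were taken from the sample titles. The 8 genes and the lists were chosen with earlier results of these data known.

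Estimated counts were rounded, genes were kept with filterByExpr of edgeR 4.0.16, and BIT and WT libraries were compared on the whole table with limma 3.58.1 (quantile normalization, voom, lmFit, eBayes) in R 4.3.3, the normalization and method of the study. A gene was called at a Benjamini-Hochberg adjusted p below 0.05. No batch entered the fit. Intervals are 95% intervals of that fit. Its p-values rest on the spread between 3 mice per group, with the variance of each gene moderated by eBayes over all genes tested. The script was tested on simulated data. Ratios within a library were compared by exact permutation. Levels per length used the union of exons in Gencode M39. Symbols of 3 γδ T cell genes were matched through RefSeq synonyms.

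The genes named are the 8 receptor genes, and of each list the genes called and the 2 of lowest p, the markers of highest level and, for the 2 receptor genes of lowest p, the 5 genes of highest correlation. Other list genes named for their role (*Stat5a*, *Stat5b*, *Cish*, *Bcl2*, *Mcl1*, *Foxo1*, *Gfi1*, *Foxp3*, *Cd4*, *Cd40lg*, *Zbtb7b*, *Klra4*, *Klra8*, *Klrb1c*, *Ncr1*) were chosen after their values were seen, and some genes that this rule names are not reported here. The fit was repeated with DESeq2 1.42.0, with the quasi-likelihood test of edgeR, with TMM normalization, with weights for library quality, with other filters on low counts, with a block for the replicate number, with replicate 3 as a batch, and without each library. The comparison of replicates 1 and 2 alone was added after seeing the data.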

Additional observations from a re-analysis of the deposited data

How the results depend on the processing

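By limma-voom, 1 of the 8 receptor genes was called. The number was 2, with *Il7r* added, with DESeq2, with no filter on low counts and with replicate 3 as a batch, and between 0 and 1 with each library left out, where it was 1 only without WT replicate 3. Of the pathway genes 1 was called, against 6 with DESeq2, 2 with sample quality weights, 5 in replicates 1 and 2 alone and between 0 and 5 with each library left out (5 without WT replicate 3, 0 without any other library). Over all genes 22 were called, 14 with edgeR, 125 with DESeq2, 42 with replicate 3 as a batch, 71 in replicates 1 and 2 alone and from 1 to 37 with each library left out, the lowest without WT replicate 1 and the highest without the third WT library. The estimate of *Il2rg*, near 0, turned positive with TMM normalization (0.0353), edgeR (0.0373), DESeq2 (0.0414), sample quality weights (0.00882), the replicate block with TMM normalization (0.0349) and in replicates 1 and 2 alone (0.000276), and lay between -0.0379 and 0.0469 with each library left out. That of *Il21r* turned positive with TMM normalization (0.0265), edgeR (0.0239), DESeq2 (0.0278) and the replicate block with TMM normalization (0.026). The other 6 genes kept their direction under every alternative that gave a value, *Il9r* not being kept by the filter on 1 CPM. With the longest transcript as the length, the median level of *Il2rg* was 410.2 in place of 287 CPM per kilobase. The causes were not tested. The replicate number pairs no samples by label, and the deviations of libraries of the same number had correlations of 0.139, 0.025 and 0.332 across genes. By these deviations, WT replicate 2 was closest to BIT replicate 1 (0.244). In the normalized levels themselves, WT replicate 3 correlated more with BIT replicate 3 (r = 0.98) than with WT replicates 1 and 2 (0.9726 and 0.9727). BIT replicate 3 in turn correlated less with BIT replicates 1 and 2 (0.974 and 0.9746) than with WT replicate 3. These 2 libraries also had the highest *Xist* counts, at 66626 for WT replicate 3 and 125 for BIT replicate 3. What they share was not tested. With the replicate block 1 receptor gene and 21 genes in all were called. Depth limits *Il9r*, *Il2ra* and *Il15ra* most, at 4 to 263 counts per library.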
